A study of Mus musculus with 8 samples.

Results

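Fat cell fate rests on a small set of transcription factors and coactivators, and 7 of these genes were followed here across stromal and fibroblast cell lines of the mouse. The genes were Cebpb, Cebpd, Cebpa, Pparg, Klf15, Ppargc1a and Ppargc1b. They were chosen by the gene symbol that the platform annotation gives to a probe set, and every probe set with 1 of these symbols was taken. This gave 13 probe sets out of 45101 on the array, of which 34958 carried exactly 1 symbol. Ppargc1a had 5 probe sets, Cebpb and Cebpd had 2 each and the other 4 genes had 1 each.

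The samples were 8 arrays in 4 groups of 2 biological replicates. The first group was OP9 cells, a bone marrow stromal line labelled as strain B6C3F1, that had been grown in contact with 230-238 cells, a line of pre-B cells. The second was OP9 cells without pre-B cells, which per the study's methods received conditioned medium from a parallel co-culture. By the study's account of this experiment, the OP9 cells of both groups carried the red fluorescent protein mStrawberry from a retroviral vector. The study also describes sorting by this protein after treatment with trypsin and EDTA, so the co-culture arrays are meant to hold stromal RNA alone. The sample titles of the OP9 arrays name neither the vector nor the sort. The other two groups were MC3T3, an osteoblast-like line, and NIH3T3, an embryonic fibroblast line, both labelled Balb/c. OP9 cells were kept in OptiMEM and the other lines in DMEM, all with fetal calf serum, so cell line, strain and medium cannot be told apart between them. The conditioned medium, vector and sorting described for OP9 cells are not described in the methods for the other lines. These cannot be told apart from the line either. Each line stands for 1 established line, and 1 MC3T3 array is described in its label as sorted cells. The study asked whether contact with blood cell progenitors alters stromal cells, and what sets OP9 apart from other lines.

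In cultured preadipocytes, C/EBPβ and C/EBPδ come on first after a hormonal stimulus, and together they switch on PPARγ and C/EBPα. PPARγ and C/EBPα maintain each other's expression and turn on the genes of the mature fat cell, such as those for lipid uptake, storage and adipokine secretion. KLF15 acts alongside them, while PGC-1α and PGC-1β, the products of Ppargc1a and Ppargc1b, are coactivators that bind PPARγ and other nuclear receptors and drive mitochondrial and fatty acid oxidation genes. OP9 cells are known as preadipocytes that turn into fat cells readily.

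Intensities had a median between 41.77 and 44.99 on the 8 arrays, and between 34.3 and 36.3% of all probe sets reached 100, the minimum used for testing. Replicates of the OP9 groups lay closest, with a median absolute difference of 0.074 on the log2 scale in both, against 0.095 in MC3T3 and 0.164 in NIH3T3. In all, 4 fat cell marker genes summed to 10341 and 10403 in co-cultured OP9 cells, against 31616 and 31579.7 in OP9 cells, 64 and 55.8 in MC3T3 and 4394 and 4629 in NIH3T3, where Lpl made up most of it. Of 6 osteoblast markers, 4 could be read, since Runx2 and Bglap were not matched to a probe set with 1 symbol. Of the 4, only Col1a1 reached 100 in MC3T3 cells, and Sp7, Alpl and Ibsp did not. In co-cultured OP9 cells 0 of 9 pre-B cell markers reached 100 on both arrays. Their summed intensity was 389 and 388 there, against 263 and 272 in OP9 cells, 329 and 303 in MC3T3 and 524 and 527 in NIH3T3. Of these markers Vpreb1 averaged 76.9 in co-cultured OP9 cells, against 23.7 in OP9 cells, 23.3 in MC3T3 and 27.7 in NIH3T3. The 6 leukocyte markers summed to 392 and 391 in co-cultured OP9 cells, against 210.3 and 206 in OP9 cells. Among them Coro1a averaged 121 in co-cultured OP9 cells and 24.9 in OP9 cells, and Ptprc averaged 32.8 in co-cultured OP9 cells and 8.75 in OP9 cells. The part of residual pre-B cell RNA in the differences below was not tested.

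The sequences ahead of 4 of the genes are shown because these genes lay on both sides of the co-culture difference described below. Each is the 250 bases before an annotated start, from RefSeq on GRCm38.p6, read 5′ to 3′ on the strand of the gene. RefSeq promoters were found for 5 of the 7 genes. Capitals mark matches on either strand to TTGCNNAA, a form of the C/EBP recognition sequence, to TGACG, the core of the cAMP response element, or to TATAAA, the TATA box. The first is Cebpb at chr2:167688665-167688914 (+), then Ppargc1a at chr5:51567726-51567975 (-), Cebpa at chr7:35119043-35119292 (+) and the most downstream of 3 Pparg starts at chr6:115421816-115422065 (+), which opens the transcript of the fat cell isoform PPARγ2.
Cebpb: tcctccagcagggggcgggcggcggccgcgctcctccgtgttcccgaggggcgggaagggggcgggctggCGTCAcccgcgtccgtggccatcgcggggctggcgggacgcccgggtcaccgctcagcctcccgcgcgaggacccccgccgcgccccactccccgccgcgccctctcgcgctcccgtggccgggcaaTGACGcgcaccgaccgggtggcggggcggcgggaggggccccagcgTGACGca
Ppargc1a: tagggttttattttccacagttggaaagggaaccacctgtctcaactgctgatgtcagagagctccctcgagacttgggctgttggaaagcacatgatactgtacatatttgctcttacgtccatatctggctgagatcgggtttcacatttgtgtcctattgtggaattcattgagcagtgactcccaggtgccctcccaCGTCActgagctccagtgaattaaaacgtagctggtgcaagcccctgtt
Cebpa: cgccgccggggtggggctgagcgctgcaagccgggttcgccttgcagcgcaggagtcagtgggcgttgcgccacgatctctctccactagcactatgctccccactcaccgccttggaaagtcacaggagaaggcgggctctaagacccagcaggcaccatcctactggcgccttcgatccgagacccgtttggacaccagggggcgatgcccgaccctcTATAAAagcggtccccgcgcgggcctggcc
Pparg: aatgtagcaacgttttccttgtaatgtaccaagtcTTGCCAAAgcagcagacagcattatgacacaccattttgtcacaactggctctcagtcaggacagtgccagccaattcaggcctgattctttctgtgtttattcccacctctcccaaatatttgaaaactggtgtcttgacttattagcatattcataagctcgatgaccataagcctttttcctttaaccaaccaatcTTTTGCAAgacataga
The Cebpb sequence held 3 TGACG matches, whose first bases lie 180, 53 and 7 bases before the start. The Ppargc1a sequence held 1 such match, at 49 bases. Cebpa had a TATA box at 30 bases before its start and none of the other motifs. The Pparg sequence held 2 TTGCNNAA matches, at 215 and 16 bases, while the regions before the other 2 Pparg starts held none. Among all 32851 RefSeq regions of this length, 17.8% held TGACG, 12.4% TATAAA and 9.56% TTGCNNAA. A match is a run of letters, and binding was not measured.

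The 2 C/EBP genes that act early were higher in co-cultured OP9 cells, Cebpd on 1 of its 2 probe sets. Cebpa, Pparg and both PGC-1 genes were lower. Differences were called where limma, fitted over all 8 arrays, gave an adjusted p below 0.05 and at least a 2-fold difference. By this rule Cebpd rose 2.59-fold, Cebpa fell 2.30-fold and Ppargc1a fell 5.60-fold, while Cebpb, Pparg and Ppargc1b differed by 1.83-fold to 1.94-fold and were not called. Of the 13 probe sets, 7 passed the minimum of 100 on at least 2 arrays, and of these 1 was called higher, 2 lower and 4 not called. Among all 17030 probe sets tested, 5.4% were called, 2.42% higher and 2.98% lower, and the median difference was -0.07 on the log2 scale. With so few members, nothing was read from their share against this background. In these bulk samples a lower intensity can come from fewer cells of a type or from less RNA per cell, and the 2 cannot be told apart.

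**Figure D1:**
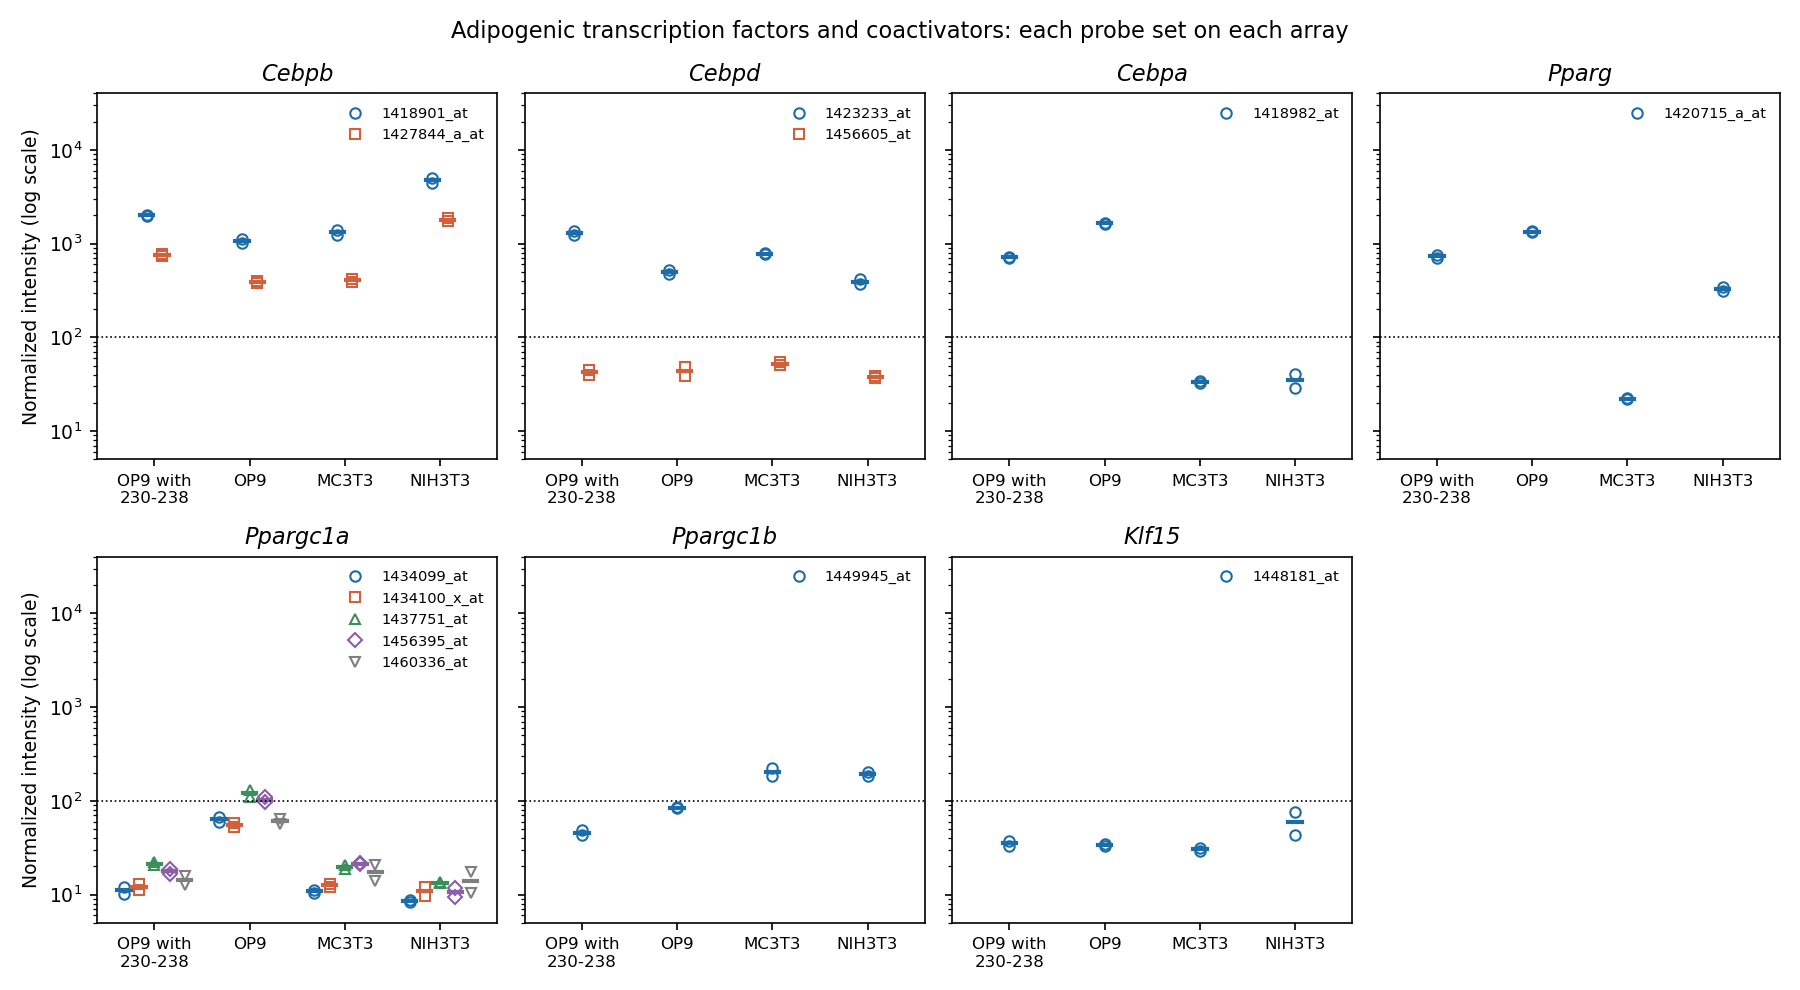
Normalized intensity, on a log axis, of the 13 probe sets of the 7 genes on each of the 8 arrays. Open symbols are arrays, short bars are means of 2 arrays, and the dotted line is the minimum of 100. Pparg, Cebpa and Ppargc1a were highest in OP9 cells and Cebpb in NIH3T3 cells. Cebpd was highest in co-cultured OP9 cells on 1423233_at but not on 1456605_at.

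Cebpd, which encodes an early C/EBP that responds to glucocorticoid and to inflammatory cytokines, had intensities of 1234 and 1364 (1423233_at) in co-cultured OP9 cells, against 526 and 478 in OP9 cells. It read 792 and 771 in MC3T3 cells and 368 and 417 in NIH3T3 cells, so the co-cultured cells were the highest of the 4 groups with no overlap. The difference between co-cultured OP9 and OP9 cells was 1.37 ± 0.10 on the log2 scale (SE, n = 2 each, limma adjusted p = 7.54e-05). The difference was rank 259 from the top among the 17030 probe sets tested. The second Cebpd probe set, 1456605_at, stayed near the array median, between 36.9 and 54.3 on all 8 arrays. Its difference was -0.04, with a 95% interval of -0.35 to 0.26, so the rise rests on 1 probe set.

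Cebpb, whose product is the main early activator and also drives acute phase and interleukin genes, gave 2 parallel readings. Its brighter probe set, 1418901_at, read 2026 and 1968 in co-cultured OP9 cells, against 1018 and 1131 in OP9 cells. The other, 1427844_a_at, read 746 and 776 in co-cultured OP9 cells, against 384 and 399.8 in OP9 cells. The groups did not overlap on either probe set. The differences were 0.90 ± 0.09 (limma adjusted p = 0.000461) and 0.96 ± 0.08 (limma adjusted p = 0.000142) on the log2 scale, or 1.86-fold and 1.94-fold. Both stayed just under the 2-fold minimum, and after quantile normalization the second was called, at 1.04.

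Cebpa, whose product locks in the fat cell state and insulin sensitivity, went the other way. It read 719 and 709 in co-cultured OP9 cells, against 1622 and 1663 in OP9 cells. Each pair of arrays lay within a few percent and the groups were far apart, at a log2 difference of -1.20 ± 0.15 (limma adjusted p = 0.00104). Cebpa in co-cultured OP9 cells remained well above its readings of 32.9 and 33.8 in MC3T3 cells and 41 and 28.5 in NIH3T3 cells, which were under the array medians.

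Pparg, the nuclear receptor without which fat cells do not form, read 706 and 759 in co-cultured OP9 cells, against 1358 and 1323 in OP9 cells. The groups did not overlap and the log2 difference was -0.87 ± 0.08 (limma adjusted p = 0.000226), which is 1.83-fold and under the minimum for a call. The probe set, 1420715_a_at, reads more than 1 transcript of the gene by its suffix, so the 2 PPARγ isoforms were not told apart.

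Ppargc1a, the PGC-1α gene, which cold and cAMP induce in brown fat and fasting in liver, was low on this array and still gave the widest co-culture difference of the 7 genes. The probe set that passed the minimum, 1437751_at, read 20.5 and 22.2 in co-cultured OP9 cells, against 131 and 109 in OP9 cells. It passed only through the OP9 arrays, so it could not have been tested without being high there. The log2 difference was -2.49 ± 0.11 (limma adjusted p = 9.53e-06), and it shrank to -1.86 with 16 added to every value, since the co-culture readings lie below the array median. The other 4 probe sets of the gene read between 10.1 and 18.6 in co-cultured OP9 cells, against 52.9 to 110 in OP9 cells. With no minimum applied, all 5 were called lower in co-cultured OP9 cells, at -2.08 to -2.54, where 3.1% of 34958 probe sets were called, 1.41% higher and 1.69% lower. These probe sets read the same RNA and are not independent. Ppargc1a was also among the genes the study displayed as altered in these arrays, so its direction is no independent evidence.

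Ppargc1b, the PGC-1β gene, read 48.4 and 42.9 in co-cultured OP9 cells, against 85.4 and 83.8 in OP9 cells. It passed the minimum only through the MC3T3 and NIH3T3 arrays, and the log2 difference of -0.89 ± 0.11 (limma adjusted p = 0.000947) was 1.86-fold and not called. Klf15, which encodes a Krüppel-like factor that raises Pparg and the glucose transporter gene Slc2a4, passed the minimum in no group. It read 37.4 and 32.7 in co-cultured OP9 cells, against 34.4 and 32.6 in OP9 cells. The groups overlapped, and with no minimum applied the difference was 0.06, with a 95% interval of -0.48 to 0.60. All 4 readings lie under the array medians, where background compresses a difference, so the interval is no bound on a change of the RNA.

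**Figure D2:**
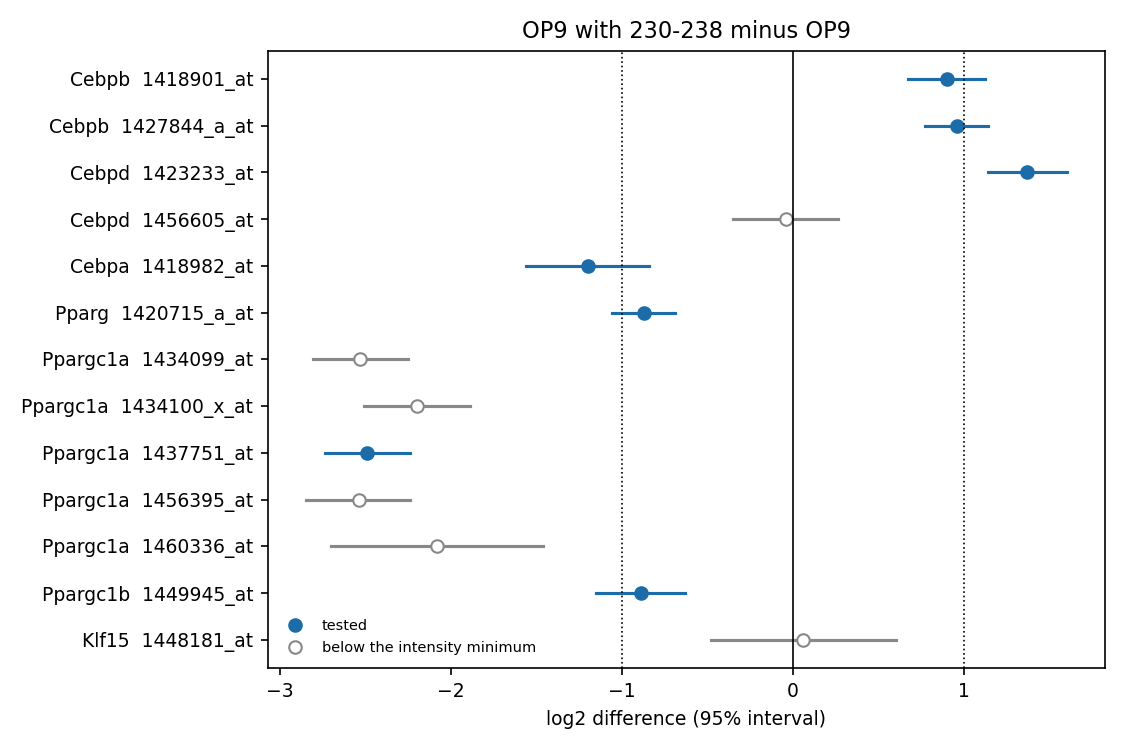
Log2 difference between co-cultured OP9 cells and OP9 cells for each of the 13 probe sets, with its 95% interval from limma. Filled points passed the intensity minimum, open points are from the fit with no minimum, and dotted lines mark 2-fold. Both Cebpb probe sets and Cebpd on 1423233_at lie right of 0, while the second Cebpd probe set, 1456605_at, lies at -0.04. Cebpa, Pparg, Ppargc1b and all 5 Ppargc1a probe sets lie left of 0.

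The same genes were then compared between OP9 cells and each of the other lines. These comparisons use the OP9 arrays that also served the co-culture comparison, so the 2 kinds of comparison are not independent. OP9 cells stood above both lines in Cebpa, Pparg and Ppargc1a and below NIH3T3 in Cebpb. Against NIH3T3, 3 of the 7 tested probe sets were called higher and 3 lower, where 32% of all probe sets tested were called, 21.3% higher and 10.7% lower. Against MC3T3, 3 were called higher and 1 lower, where 20.1% were called, 10.5% higher and 9.58% lower. Of the called members, Cebpa reached the minimum only in the OP9 groups and Ppargc1a only in OP9 cells. Ppargc1b reached it only in MC3T3 and NIH3T3 cells. Each could be tested only through groups where it is high, so nothing is read from these counts against the shares. With no intensity minimum, 7 of the 13 were called higher and 3 lower against NIH3T3, where 19% of 34958 probe sets were called, 12.3% higher and 6.69% lower. Against MC3T3 the same fit called 7 higher and 1 lower, where 11.9% were called, 6.25% higher and 5.66% lower. The added calls were the 4 dimmer Ppargc1a probe sets in both. The median over all probe sets was 0.177 on the log2 scale in OP9 minus NIH3T3 and 0.03 after quantile normalization, and no call of a member changed.

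Cebpa reached the minimum of 100 on the arrays of both OP9 groups and on none of MC3T3 or NIH3T3, so it could be tested against them only because it is high in OP9 cells. It was 5.59 ± 0.15 higher on the log2 scale in OP9 than in NIH3T3 cells (limma adjusted p = 8.57e-08) and 5.62 ± 0.15 higher than in MC3T3 cells (limma adjusted p = 1.42e-07). These were about 48-fold and 49.2-fold, but with both other lines at background the size is open to the background level. MC3T3 and NIH3T3 overlapped in Cebpa, with a difference of -0.04 and a 95% interval of -0.40 to 0.32. Even in co-culture the gene was called 20.9-fold above NIH3T3 and 21.4-fold above MC3T3, a comparison in which 22.8% of all probe sets tested were called, 11% higher and 11.9% lower.

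Pparg read 21.9 and 22.3 in MC3T3 cells and 314 and 341 in NIH3T3 cells, and MC3T3 was called lower than NIH3T3. The MC3T3 readings lie under the array median, so the size of any difference from them is open to the background level. Between these lines 28.9% of all probe sets tested were called, 18.8% higher and 10.1% lower in MC3T3. OP9 was 5.92 ± 0.08 above MC3T3 on the log2 scale (limma adjusted p = 1.58e-08), which fell to 5.15 with 16 added to every value, and 2.04 ± 0.08 above NIH3T3 (limma adjusted p = 4.37e-07). The order of the 4 groups was OP9, co-cultured OP9, NIH3T3 and MC3T3. All steps of this order but the first were called. Co-cultured OP9 cells were 2.24-fold above NIH3T3, where 30.7% of all probe sets tested were called, 19.2% higher and 11.5% lower.

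Ppargc1a (1437751_at) read 18.8 and 20.5 in MC3T3 cells and 13.2 and 13.5 in NIH3T3 cells. The probe set passed the minimum only through the OP9 arrays, so it could be tested against these lines only because it is high in OP9 cells. OP9 was 3.16 ± 0.11 above NIH3T3 on the log2 scale and 2.61 ± 0.11 above MC3T3 (limma adjusted p = 2.22e-07 and 8.50e-07), or 2.21 and 1.93 with 16 added to every value. Co-cultured OP9 cells did not differ from MC3T3 beyond the spread, at 0.12 with a 95% interval of -0.13 to 0.37 (limma adjusted p = 0.345). OP9 cells without pre-B cells were thus the one group of the 4 with readings above 100.

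Cebpb was highest in NIH3T3 cells, where 1418901_at read 4969 and 4479 and 1427844_a_at read 1748 and 1860.4. OP9 minus NIH3T3 was -2.14 ± 0.09 and -2.20 ± 0.08 on the log2 scale (limma adjusted p = 8.57e-07 and 2.80e-07). MC3T3 cells read 1384 and 1249 on the first and 393 and 422 on the second. OP9 minus MC3T3 was -0.29 and -0.06 on the 2 probe sets and not called, and on the second the arrays overlapped. Co-cultured OP9 cells came between, 1.52-fold and 1.87-fold above MC3T3 and 2.36-fold and 2.37-fold below NIH3T3.

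Cebpd was called in neither comparison of OP9 with another line. OP9 minus NIH3T3 was 0.36 ± 0.10 (limma adjusted p = 0.011) and OP9 minus MC3T3 was -0.64 ± 0.10 (limma adjusted p = 0.000809). Co-cultured OP9 cells were called higher than NIH3T3, by 3.31-fold, and were 1.66-fold above MC3T3, which was not called.

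Ppargc1b ran opposite to Ppargc1a between the lines. It read 223 and 185 in MC3T3 cells and 203 and 186 in NIH3T3 cells, arrays that overlapped at a difference of 0.06 with a 95% interval of -0.20 to 0.32. OP9 was lower than both, at -1.26 ± 0.11 against MC3T3 (limma adjusted p = 4.79e-05) and -1.20 ± 0.11 against NIH3T3 (limma adjusted p = 3.94e-05). Ppargc1b reached the minimum only on the MC3T3 and NIH3T3 arrays, so it could be tested only because it is high there. Co-cultured OP9 cells were lower still, 4.45-fold below MC3T3 and 4.27-fold below NIH3T3. Klf15 read 31.6 and 28.9 in MC3T3 cells and 76.5 and 43.7 in NIH3T3 cells, and no array reached 100.

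**Figure D3:**
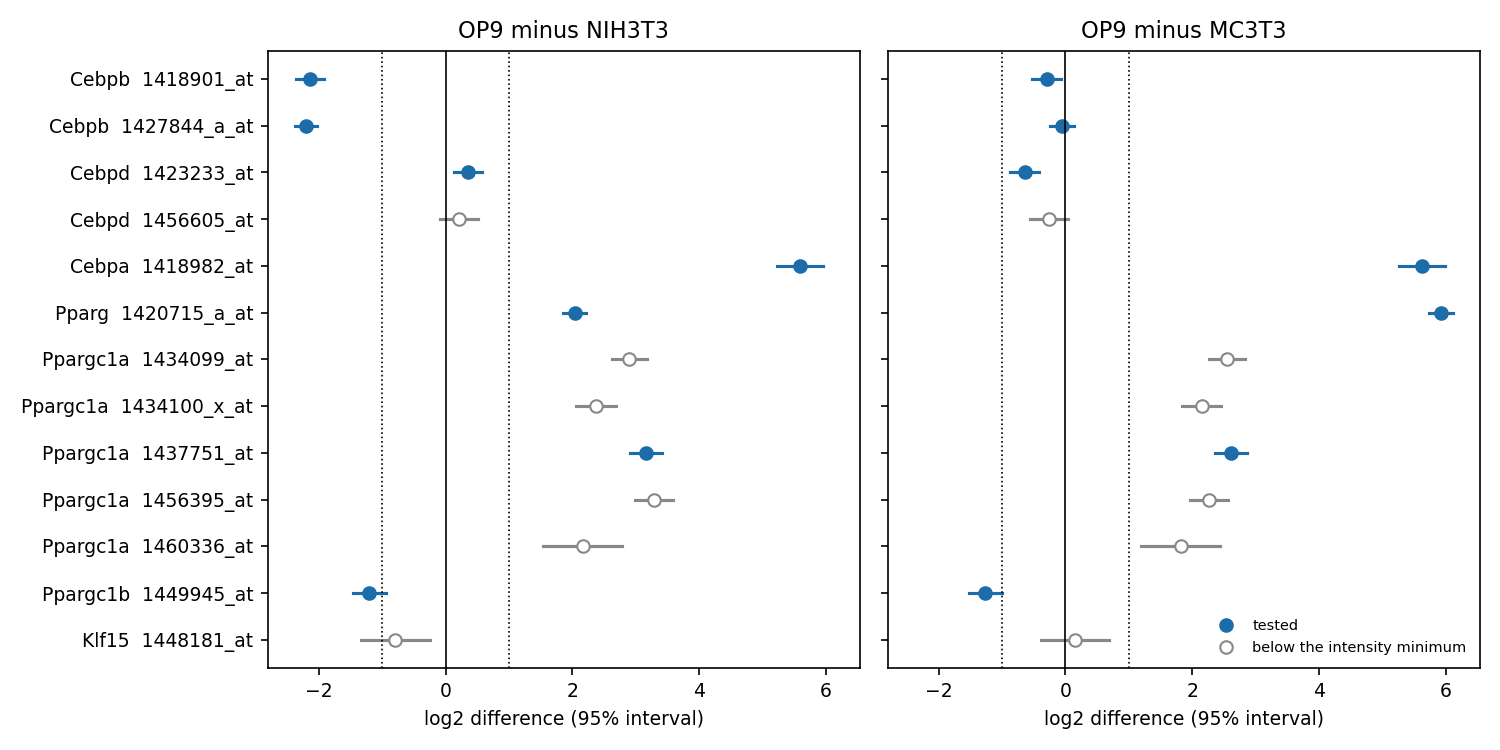
Log2 difference of OP9 cells from NIH3T3 cells on the left and from MC3T3 cells on the right for the 13 probe sets, with 95% intervals from limma. Filled points passed the intensity minimum, open points are from the fit with no minimum, and dotted lines mark 2-fold. Cebpa lies near 5.6 in both panels, while Pparg lies at 2.04 against NIH3T3 and at 5.92 against MC3T3.

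Across the 8 arrays, Pearson's r of log2 intensity between members was 0.80 for Pparg and Cebpa, 0.78 for Cebpa and Ppargc1a and -0.86 for Cebpa and Ppargc1b. These values describe 4 groups of 2 arrays that share a line, a medium and a culture, and carry no test. Cebpb and Cebpd were not alike over the groups, at -0.34, since NIH3T3 was highest in one and lowest in the other. Among 10072 probe sets that spanned at least 2-fold, the genes most like each member were found by the same measure. For Cebpa they were Rbp4, the serum retinol carrier that fat cells and liver secrete, at 0.9999, then Slc4a4 and Camk1d. Rbp4 read 903 and 924 in co-cultured OP9 cells, against 2804 and 2934 in OP9 cells, and lay between 12.2 and 21.2 in the other lines. For Pparg they were Sox4 (0.9984), Lpl, on a second probe set of that gene, and Elavl2, for Cebpb Strbp (0.9972), Slc6a9 and Vegfa, and for Cebpd Syt13 (0.9961), Trp63 and Phlda1. Syt13, a synaptotagmin, read 599 and 724 in co-cultured OP9 cells, against 42.6 and 43.7 in OP9 cells. For Ppargc1b they were Ipp (0.9942), Cyp39a1 and Rif1.

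For Ppargc1a the closest were Nabp1 (0.9995), Fos (0.9935) and Ak3. Fos, the immediate early gene of the AP-1 complex, read 209 and 233 in co-cultured OP9 cells, against 6401 and 6382 in OP9 cells. A list of 15 immediate early genes was therefore drawn up after these values were seen. In it 9 genes fell in co-cultured OP9 cells and 0 rose, where 2.98% of all probe sets tested were called lower and 2.42% higher. Fosb, called lower, and Atf3, not called, reached the minimum on the OP9 arrays alone. They could be tested only because they are high there. Klf2, also called lower, is counted again among the restrainers below. As the list was built around a gene seen to fall, nothing is read from its share. Among the 9 were Nr4a1 with 399 and 401 in co-cultured OP9 cells, against 3487 and 3561 in OP9 cells, and Egr1 with 855 and 882 in co-cultured OP9 cells, against 5314 and 5624 in OP9 cells. At an unadjusted limma p below 0.05, 12 were lower and 0 higher, with no share over all probe sets at that cut to set beside them. Jun, Junb, Egr3 and Klf6 differed by less than 1.3-fold. These genes answer quickly to serum, cAMP, handling and stress, and their part in the Ppargc1a difference was not tested.

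Around the 7 genes, lists of partners, opponents and target genes were counted, with 1 probe set per gene. Of 18 tested target genes of PPARγ and C/EBPα, 10 were called lower in co-cultured OP9 cells, while few of the other regulators were called. Of the 10, 4 could be tested only because they are high in OP9 cells. In the C/EBP family, Cebpg read 317 and 301 in co-cultured OP9 cells, against 311 and 273 in OP9 cells, and Ddit3, whose product CHOP blocks C/EBPs under stress, was 1.51-fold higher at 0.60 ± 0.08 and not called. Among the PPARs and their RXR partners, 0 of 4 tested genes were called by limma in co-culture, where 5.4% of all probe sets tested were called. At an unadjusted limma p below 0.05 there were 2 higher and 1 lower. For this list and those below, no share over all probe sets is given at the unadjusted cut, so nothing is read from such counts. Ppard differed by 0.37, Rxrb by 0.31 and Rxra by 0.01 on the log2 scale, with Rxra at 396 and 392 in co-cultured OP9 cells, against 389.6 and 391 in OP9 cells. The sign for Rxra turned to -0.01 with median scaling. Ppara and Rxrg did not pass the minimum.

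Of 19 other tested genes that promote fat cell fate, 1 fell in co-cultured OP9 cells and 0 rose, with a median of -0.03. Among all probe sets tested, 2.98% were called lower and 2.42% higher, with a median of -0.07, and the counts of this list and of the next lie near those shares. It was Egr2, which is also in the immediate early list and read 192 and 208 in co-cultured OP9 cells, against 638 and 707 in OP9 cells. At an unadjusted limma p below 0.05, 4 of these genes were higher and 8 lower, with no share over all probe sets at that cut to set beside them. Of 22 restrainers of fat cell fate, 1 rose and 2 fell, with a median of -0.19. Gata3, which holds cells at the preadipocyte stage, rose 2.84-fold to 118 and 113 in co-cultured OP9 cells, against 38.7 and 42.5 in OP9 cells. It reached the minimum on the co-culture arrays alone, so it could be tested only because it is high there. Klf2, which represses the Pparg promoter in preadipocytes, fell to 60.4 and 67.8 in co-cultured OP9 cells, against 847 and 932 in OP9 cells, and Hes1, a Notch target, fell 2.42-fold.

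Of 18 tested target genes of PPARγ and C/EBPα, 10 fell in co-cultured OP9 cells and 0 rose, where 2.98% of all probe sets tested were called lower. The median of the list was -1.05, against -0.07 over all probe sets. Of the 10, 4 (Gpd1, Car3, Cidec and Retn) reached the minimum on the OP9 arrays alone. These 4 could enter the count and the median only because they are high there. The other 6 reached the minimum in co-cultured OP9 cells too. At an unadjusted limma p below 0.05, 17 were lower and 1 higher, the exception being Angptl4, with a difference of 0.55 that was not called. The shares above are for the stricter call, and none is given at this looser cut, so nothing is read from the 17 and 1. At an adjusted limma p below 0.05 with no minimum fold, 36.9% of the calls over all probe sets were higher. Adipoq, the gene of the adipokine adiponectin, read 358 and 337 in co-cultured OP9 cells, against 10697 and 10639 in OP9 cells, a log2 difference of -4.94 ± 0.09 (limma adjusted p = 7.57e-07). Cd36, a fatty acid transporter, read 133 and 134 in co-cultured OP9 cells, against 1885 and 2042 in OP9 cells. Gpd1, which makes glycerol phosphate for triglyceride, fell 9.48-fold and Car3, a carbonic anhydrase abundant in fat, fell 8.15-fold. Not all targets went so far, since Fabp4 fell 2.07-fold and Lpl 2.09-fold, close to the 2.30-fold of Cebpa. Adipoq, Gpd1 and Car3 were among the genes the study displayed as altered in co-culture, as were Fos, Nr4a1, Klf2, Ccl2 and Ccl5 on the other lists, so their directions are not independent evidence.

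The partners and target genes of the PGC-1 coactivators, mostly of mitochondria and fatty acid oxidation, had no called gene. In limma 0 of 21 tested genes were called in co-cultured OP9 cells, with a median of -0.10. Over all probe sets tested 5.4% were called and the median was -0.07, so 0 of 21 lies near that share. At an unadjusted limma p below 0.05 there were 9 lower and 0 higher, with no share over all probe sets at that cut to set beside them. Idh3a, of the citrate cycle, differed by -0.81 and Cycs, cytochrome c, by -0.68, while Esrra, the orphan receptor that works with PGC-1α, differed by -0.08. These genes were chosen after their values were seen.

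Acute phase and cytokine targets of C/EBPβ and C/EBPδ were called in both directions. Of 8 tested, 2 rose and 2 fell in co-cultured OP9 cells, with a median of 0.32, where 2.42% of all probe sets tested were called higher and 2.98% lower and the median was -0.07. The chemokine genes Ccl5 and Ccl2 rose, with Ccl5 at 1142 and 1181 in co-cultured OP9 cells, against 50 and 43 in OP9 cells, and Ccl2 at 1473 and 1309 in co-cultured OP9 cells, against 129.7 and 129 in OP9 cells. The acute phase genes Orm1 and Lcn2 fell, by 4.47-fold and 3.44-fold. Both reached the minimum on the OP9 arrays alone and could be tested only because they are high there. Hp, the haptoglobin gene, differed by 0.72 and was not called.

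**Figure D4:**
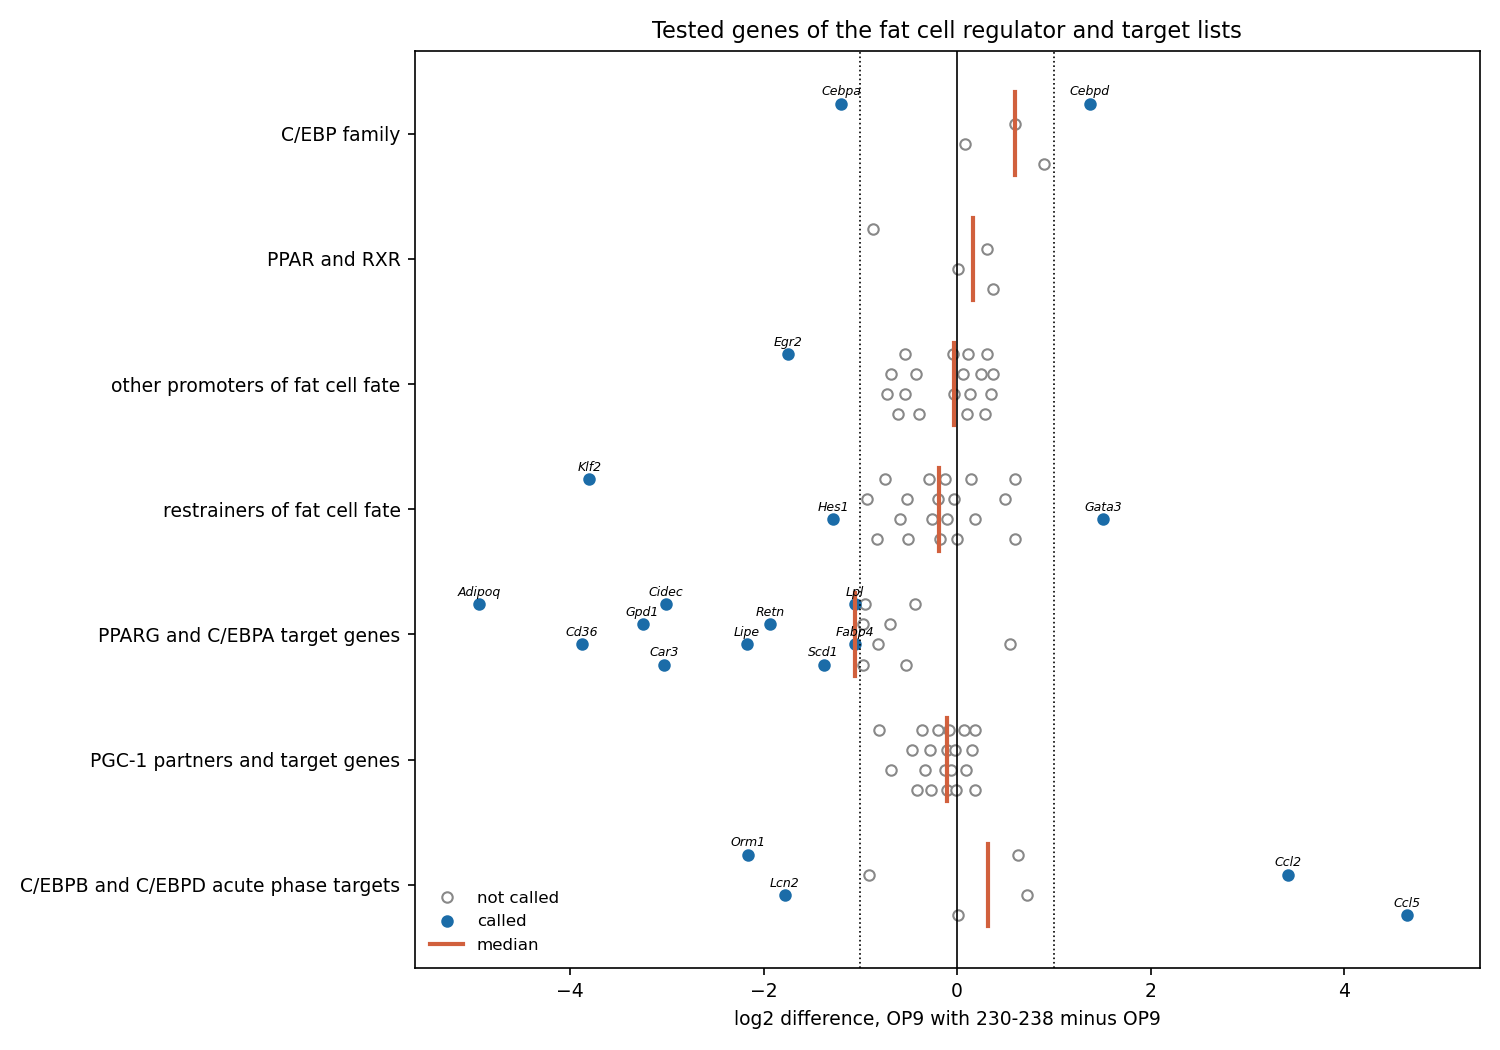
Log2 difference between co-cultured OP9 cells and OP9 cells for each tested gene of 7 lists, with 1 point per gene at an arbitrary height within its list. Filled points were called and are named, open points were not called, the vertical bars are list medians and the dotted lines mark 2-fold. The PPARγ and C/EBPα targets have a median of -1.05, which includes 4 called genes that passed the minimum only through the OP9 arrays. The PGC-1 partners and targets have no called gene, where 5.4% of all probe sets tested were called.

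The same lists were counted between OP9 and the other lines. Over all probe sets tested, 21.3% were called higher and 10.7% lower against NIH3T3, and 10.5% higher and 9.58% lower against MC3T3. Against NIH3T3, 13 of the 18 PPARγ and C/EBPα targets were called higher in OP9 cells and 2 were called lower. Against MC3T3, 13 were called higher and 1 lower. Of these 18 genes, 8 reached the minimum in the OP9 groups alone, so they could be tested only because they are high there. Of the 19 other genes that promote fat cell fate, 7 were higher and 4 lower against NIH3T3, and 8 higher and 1 lower against MC3T3. Among 22 restrainers, 7 were higher and 1 lower against NIH3T3, and 4 higher and 1 lower against MC3T3, which is not far from the shares over all probe sets. In these lists 3 and 2 genes reached the minimum in the OP9 groups alone, Zfp521 among them. A pair of these regulators with opposite known roles is given here, chosen after their values were seen. Ebf1, which promotes both fat and B-lymphoid fates, averaged 2034 in OP9 cells, 130.4 in MC3T3 cells and 52.1 in NIH3T3 cells. Zfp521, which restrains EBF1 and fat cell commitment, averaged 1369 in OP9 cells, 66.3 in MC3T3 cells and 35.6 in NIH3T3 cells.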

How the data were processed

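RNA was measured on Affymetrix mouse arrays, and the values are the normalized intensity on a linear scale that the authors deposited in their series table. RMA Express, affylmGUI and dChip appear in the study's methods, the one behind this table not given in the sources used here. Probe sets were named from the platform annotation, and 34754 of the 34958 with 1 symbol matched RefSeq. The test took probe sets that reached 100 on 2 or more arrays and used log2 values, with no pseudocount, in limma 3.58.1 (R 4.3.3) over all 8 arrays (4 residual degrees of freedom), with Benjamini-Hochberg adjustment over the 17030 tested. On simulated data for OP9 with 230-238 minus OP9, with 17030 probe sets, 90% of probe sets raised by 1.5 on the log2 scale and 100% of those raised by 2 were called. Of those lowered, 98% were called at either size. Smaller differences, such as those of Cebpa, Cebpb, Cebpd and Pparg, were not simulated. A probe set represents 1 RNA pool per array, and 2 arrays per group limit the precision. The members and lists were chosen with earlier results of these data known. Genes named were all members, up to 4 called genes of each list with the largest co-culture difference, all of the C/EBP and PPAR lists, and the 3 genes most like each member. For lists, the brightest probe set of a gene was used. Alternatives covered the minimum, normalization, pseudocount, spread, fold and each array.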

Additional observations from a re-analysis of the deposited data

How the results depend on the processing

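For the 7 tested member probe sets in 3 comparisons, 378 of 393 values under the alternatives kept their direction and their side of the threshold, and 0 reversed. All 7 that were no longer called came from a 5-fold minimum. Leaving out any 1 array gave 3 member calls in OP9 with 230-238 minus OP9, 6 in OP9 minus NIH3T3 and 4 in OP9 minus MC3T3, each time with the lone array of a group assumed to vary like the others. Member calls came to 7, 10 and 8 in these comparisons with no intensity minimum, to 7 in the first with no minimum fold, and to 1 in the first and 2 in the second with a 5-fold minimum. Over all probe sets the calls came to 572, 3106 and 2011 with 1 probe set per gene, to 6487, 12955 and 10790 with no minimum fold, and to 98, 1430 and 914 with a 5-fold minimum. Fewer or more probe sets are tested or admitted by construction in these settings. Rxra reversed to -0.01 with median scaling and Cebpg to -0.01 without OP9 replicate 2 (its range was -0.01 to 0.18 with single arrays left out), and neither was called. Same-numbered arrays did not deviate together (r of 0.03 to 0.17), so the numbers were not taken as pairs. With the replicate number as a block, member calls stayed at 3, 6 and 4 and calls over all probe sets were 920, 5451 and 3418. The labels call the replicates biological without naming separate cultures, so p-values measure the spread between these samples. Readings near the array median carry background, which compresses their fold changes.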
